A study of Mus musculus with 4 samples.

Results

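This account covers the transporters of amino acids, their derivatives and neurotransmitters in the solute carrier families Slc1, Slc3, Slc6, Slc7, Slc36, Slc38 and Slc43. Members were taken by symbol, as every gene named Slc1a, Slc3a, Slc6a, Slc7a, Slc36a, Slc38a or Slc43a followed by digits alone. The rule itself used no measured value, but it was chosen with earlier results of these data known. There were 60 such genes among the 19938 genes of the array that had a probe set with a single symbol. Family Slc1 had 7, Slc3 had 2, Slc6 had 18, Slc7 had 15, Slc36 had 4, Slc38 had 11 and Slc43 had 3.

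The study profiled RNA from 4 mouse cell samples on 1-colour Affymetrix arrays, with 1 array each. Mouse embryonic fibroblasts (MEF) came from a background that mixed DBA/2, C57BL/6 and 129S4, as did 178B5 and 492B4, a pair of lines of induced pluripotent stem cells (iPS). Embryonic stem (ES) cells of the line v6.5 were an F1 of 129 and C57BL/6. MEF were kept in DMEM with serum. All 3 pluripotent lines were kept in ES cell medium, which also held non-essential amino acids and 2-mercaptoethanol, on a layer of growth-arrested SNL feeder cells. Cell type, added amino acids, 2-mercaptoethanol and feeder cells therefore went together in every comparison with MEF and cannot be told apart. Nothing in the labels tells of repeat cultures, how the iPS lines were made, or whether feeder cells were taken out before lysis. p-values measure only the spread between these samples.

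The deposited values are on a log scale taken as log2, and each probe set was centred on its median over the 4 arrays. A value is thus a difference from that median and not a level. Genes cannot be ranked by expression, a gene at background cannot be told from a gene that is expressed evenly, and in bulk RNA a change in the share of cells cannot be told apart from a change in RNA per cell. The defining markers went with the labels: 10 of 10 pluripotent markers, such as Pou5f1 (6.30 log2) and Dppa5a (8.06 log2), were higher in the lines than in MEF, and 10 of 10 fibroblast markers were lower, 5 of them called. Whether any marker was absent could not be read from centred values.

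Amino acids cross membranes through carriers that differ in substrate, in the ion that drives them and in the membrane they occupy. Some Slc7 proteins are light chains that reach the surface only when joined by a disulfide bond to a heavy chain of family Slc3. Slc1 and Slc6 hold the sodium-driven carriers that clear glutamate, glycine, GABA and monoamines from synapses, along with carriers of nutrients, and Slc36 and Slc38 include lysosomal carriers that inform the growth kinase mTORC1 of amino acid supply. In pluripotent cells, carriers of this kind supply, among others, threonine, on which mouse ES cells depend.

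Against MEF, 4 of the 60 transporter genes rose in the pluripotent lines and 4 fell. The cationic amino acid carriers Slc7a7 and Slc7a3 were up by more than any other member, at 3.63 and 3.54 log2, and the neutral amino acid carriers Slc6a15 and Slc43a1 rose by 1.90 and 1.23 log2. The glycine transporter Slc6a9 (-2.29 log2), the vesicular carrier Slc6a17 (-2.19 log2), the cystine importer Slc7a11 (-2.00 log2) and the glutamate carrier Slc1a6 (-1.5 log2) fell. A gene was called where the mean of the lines lay 1 log2 or more from MEF and limma's adjusted p was below 0.05. Of all genes, 17.6% were called, 7.9% higher and 9.71% lower, and of the members 13.3%, so the share of transporters called was no larger than that of genes in general. Without iPS 178B5, 2 members were called higher and 2 lower, beside 6.81% of all genes called; without ES, 5 and 6 were, beside 21.1%. The median difference was -0.04 log2 over the members and -0.10 log2 over all genes. It was 0.03 log2 over the members with each array's median set equal, and -0.25 log2 with the arrays centred on reference genes, when that of all genes was -0.30 log2.

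Most members stood close to MEF. The difference was under 0.5 log2 in either direction for 40 of 60 (66.7%, beside 58.8% of all genes). It was at least 1 log2 for 11 (18.3%, beside 21.4% of all genes). All 3 lines lay above MEF for 15 members and below it for 25, while 30.1% and 47.7% of all genes did so; for the remaining 20 members the MEF value fell among those of the lines. By family, 3 of 15 Slc7 genes, 3 of 18 Slc6 genes, 1 of 7 Slc1 genes and 1 of 3 Slc43 genes were called, and 0 of 11 Slc38, 0 of 4 Slc36 and 0 of 2 Slc3 genes. Family medians were -0.11 log2 for Slc3, -0.22 for Slc6, -0.46 for Slc36 and 0.72 for Slc43, and these kept their sign under both other centrings. Those of Slc1 (-0.04), Slc7 (-0.04) and Slc38 (0.04 log2) changed sign with the centring. The Slc36 median hides an even split, with 2 genes below 0 and 2 not.

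**Figure D1:**
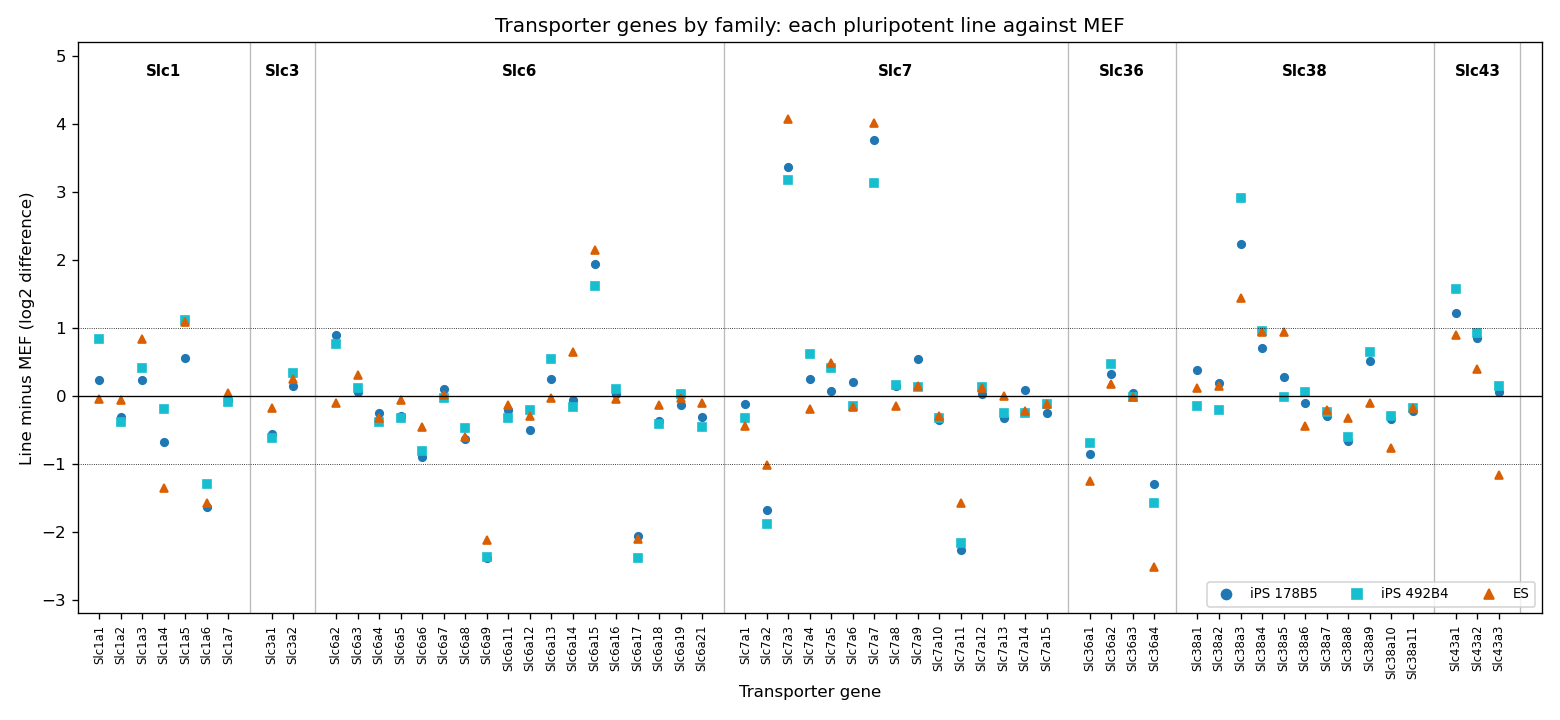
Difference of each pluripotent line from MEF (log2, vertical axis) for all 60 transporter genes, grouped by family along the horizontal axis; dotted lines mark 1 log2 in each direction. Most genes lie near 0, with Slc7a3 and Slc7a7 above 3 log2 in every line and Slc6a9 and Slc6a17 below -2 log2 in every line.

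Cationic amino acid carriers of the CAT type move arginine, lysine and ornithine without a partner chain. Slc7a3 (CAT3) was valued at -3.27 on the MEF array, 0.09 on iPS 178B5, -0.09 on iPS 492B4 and 0.81 on ES. MEF lay far below all 3 lines, and ES was the highest. The difference from MEF was 3.54 ± 0.48 log2 (SD, n = 3 lines; 11.6-fold; limma adjusted p = 0.00947). Slc7a2 (CAT2), which is inducible in many cells, went the other way, with 1.35 in MEF, -0.33 in iPS 178B5, -0.54 in iPS 492B4 and 0.33 in ES. All 3 lines were lower than MEF (-1.53 ± 0.45 log2, SD, n = 3), and the gene was not called (adjusted p = 0.0527). It was called without ES (-1.79 log2, adjusted p = 0.00534) and with reference centring (-1.73 log2, adjusted p = 0.0355). Slc7a1 (CAT1), the widely expressed member, stood at -0.30 log2 (adjusted p = 0.316). Slc7a4 and Slc7a14, related proteins, stood at 0.22 and -0.13 log2.

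Of the light chains, Slc7a7 and Slc7a11 were called, in opposite directions. Slc7a7 encodes y+LAT1, which exchanges intracellular cationic amino acids for neutral amino acids and sodium. Its values were -3.45 in MEF, 0.31 in iPS 178B5, -0.31 in iPS 492B4 and 0.57 in ES. Each line exceeded MEF by over 3 log2, and the lines themselves spanned less than 1. The rise was 3.63 ± 0.45 log2 (SD, n = 3; 12.4-fold; adjusted p = 0.00862). Slc7a7 is also known from macrophages. Of 8 macrophage markers 1 was called higher, Laptm5 at 3.11 log2. Cd68 stood at 2.34 log2 and was not called (limma adjusted p = 0.0873), and the other 6 had a mean difference below 0. The median value of the list was 0.22 in MEF, -0.01 in iPS 178B5, -0.09 in iPS 492B4 and 0.04 in ES.

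Slc7a11 encodes xCT, which imports cystine in exchange for glutamate and feeds glutathione synthesis. It was valued at 1.87 in MEF, -0.39 in iPS 178B5, -0.30 in iPS 492B4 and 0.30 in ES. MEF was the highest, and ES lay above both iPS lines, which were close together. It fell by 2.00 log2 (SD 0.38, n = 3; 4.01-fold; adjusted p = 0.0188). Without iPS 178B5 the gene was not called (-1.87 log2, adjusted p = 0.0636). Fibroblast markers were likewise highest in MEF and next highest in ES, with a median value of 3.07 in MEF, -0.93 in iPS 178B5, -1.23 in iPS 492B4 and 0.87 in ES, and ES was above both iPS lines for 9 of 10 of them. Their part in the values of Slc7a11, and of Slc7a2 and Slc6a9, which also ran from MEF through ES to the iPS lines, was not tested.

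Slc7a11 is a textbook target of the stress factor ATF4, which binds elements of the form TGATGNAA, so the promoters of the members were searched for these letters on both strands. RefSeq promoters of GRCm38.p6 were found for 43 members, and the 250 bases before each start were read. The motif was in 3 of the 43 (6.98%), Slc7a11, Slc7a7 and Slc6a21, and in 3.91% of all 27025 genes with a promoter in the same table. These shares are per gene, and a gene with more promoters has more sequence to match. The 43 members had 64 promoters and the 27025 genes had 32851. By promoter the motif was in 4 of 64, beside 3.45% of all promoters. The Slc7a11 promoter is shown because it holds the motif on each strand, on chr3:50443614-50443863, minus strand. Capitals mark the matches, at 66 to 59 and, on the opposite strand, at 47 to 40 bases before the start.

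Slc7a11: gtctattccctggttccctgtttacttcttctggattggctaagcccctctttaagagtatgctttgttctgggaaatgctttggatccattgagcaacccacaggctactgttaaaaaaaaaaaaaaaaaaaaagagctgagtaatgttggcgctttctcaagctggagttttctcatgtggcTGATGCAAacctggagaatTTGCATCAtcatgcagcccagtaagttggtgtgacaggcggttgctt

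The 30 bases around the matches of Slc7a7, which rose, and of Slc6a21, which was not called (-0.29 log2, adjusted p = 0.346), are set beside it. Slc7a7 has several annotated starts on the minus strand, and its 30-base stretches are chr14:54418067-54418096, with the match 141 to 134 bases before an annotated start, and chr14:54417923-54417952, with the match 243 to 236 bases before another. The stretch of Slc6a21 is chr7:45282834-45282863, plus strand, with the match 28 to 21 bases before the start, where it reads as the reverse complement.

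Slc7a7, upstream match: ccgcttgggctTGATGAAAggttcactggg
Slc7a7, downstream match: tagaagcTGATGCAAcagcttccccgaggg
Slc6a21: agaggtgagaaTTACATCAagtgggcctcc

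The motif thus stood in the promoter of a gene that rose, of another that fell and of Slc6a21, which was not called. The letters TGACNNNGC, the core of the antioxidant response element, were in a promoter of 8 of 43 members (18.6%) and of 11.5% of all genes with one. By promoter they were in 9 of 64, beside 10.2% of all promoters. The 8 members were Slc38a2, Slc43a1, Slc6a11, Slc6a13, Slc6a16, Slc6a9, Slc7a1 and Slc7a6, none of which held TGATGNAA. A match is only a stretch of letters, and binding was not measured.

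The heavy chains that carry these light chains differed little. Slc3a2 (CD98, the partner of Slc7a5, Slc7a6, Slc7a7, Slc7a8, Slc7a10 and Slc7a11) had values of -0.19 in MEF, -0.05 in iPS 178B5, 0.13 in iPS 492B4 and 0.05 in ES. MEF was lowest, by 0.24 ± 0.09 log2 (SD, n = 3), and the gene was not called (adjusted p = 0.325). Slc3a1 (rBAT, the partner of Slc7a9 and Slc7a13) had 0.37 in MEF, -0.19 in iPS 178B5, -0.25 in iPS 492B4 and 0.19 in ES, a difference of -0.45 log2 (SD 0.24, n = 3; adjusted p = 0.236). The 12.4-fold rise of Slc7a7 and the 4.01-fold fall of Slc7a11 thus stood beside a difference of 1.18-fold in their shared heavy chain.

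The other light chains all lay within 0.5 log2 of MEF and were not called. Slc7a5 (LAT1), the main importer of leucine and other large neutral amino acids, had -0.24 in MEF, -0.17 in iPS 178B5, 0.17 in iPS 492B4 and 0.25 in ES. The lines were on average 0.33 log2 above MEF with an SD of 0.22, and iPS 178B5 was level with MEF (0.07 log2). Slc7a8 (LAT2) had -0.07, 0.07, 0.09 and -0.22 in the same order of arrays, and Slc7a6 (y+LAT2) had 0.08, 0.29, -0.08 and -0.09. In neither did the lines lie on one side of MEF, and the mean difference of each changed sign with the centring or with a line left out. Slc7a9 (b0,+AT) had -0.14 in MEF and 0.41, -0.01 and 0.01 in the lines, Slc7a10 (Asc-1) had 0.31 and -0.04, -0.02 and 0.02, and Slc7a13 had 0.13 and -0.19, -0.13 and 0.13. Slc7a12 and Slc7a15 stood at 0.09 and -0.17 log2.

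**Figure D2:**
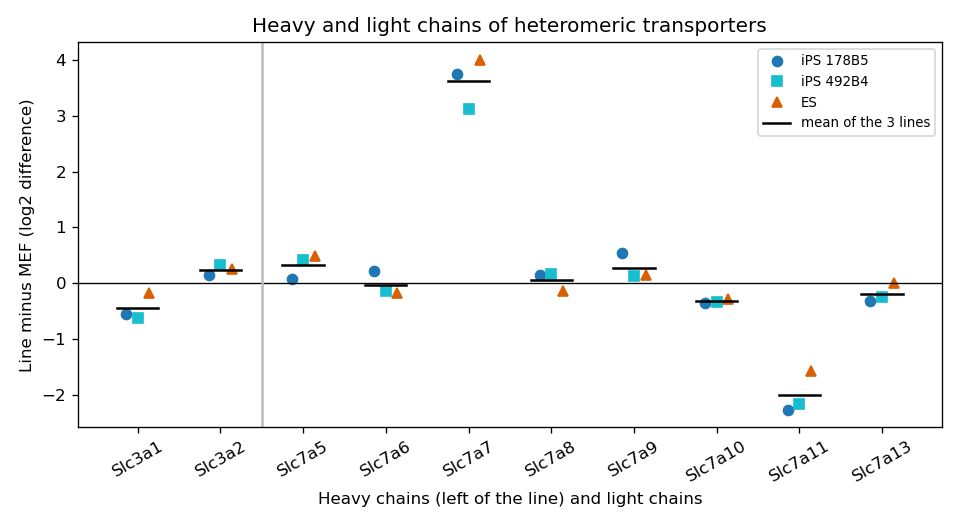
Difference from MEF (log2, vertical axis) of each pluripotent line for the heavy chains Slc3a1 and Slc3a2 and 8 light chains of family Slc7 (horizontal axis); black bars are the mean of the 3 lines. Slc7a7 lies above 3 log2 and Slc7a11 below -1.5 log2 in every line, while both heavy chains and the other light chains lie within about 1 log2 of 0.

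Family Slc6 carries transmitters, osmolytes and neutral amino acids with sodium and, for many of its carriers, chloride. Slc6a9 (GlyT1), which takes up glycine around synapses and, in the early embryo, for cell volume control, had values of 2.25 in MEF, -0.13 in iPS 178B5, -0.13 in iPS 492B4 and 0.13 in ES. The lines lay close together, far below MEF. It fell by 2.29 log2 (SD 0.15, n = 3; 4.89-fold; adjusted p = 0.00594), more than any other member. Slc6a17 (NTT4), a carrier of neutral amino acids on synaptic vesicles, had 2.09 in MEF, 0.02 in iPS 178B5, -0.30 in iPS 492B4 and -0.02 in ES. It fell by 2.19 log2 (SD 0.17, n = 3; 4.55-fold; adjusted p = 0.00646).

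Slc6a15 (B0AT2), a carrier of branched-chain amino acids and proline, was the only Slc6 gene called higher. It was valued at -1.78 in MEF, 0.16 in iPS 178B5, -0.16 in iPS 492B4 and 0.37 in ES. All lines exceeded MEF by over 1.5 log2, and the rise was 1.90 ± 0.26 log2 (SD, n = 3; 3.72-fold; adjusted p = 0.0123). Without iPS 178B5 it was not called (1.88 log2, adjusted p = 0.0571).

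The osmolyte and energy carriers Slc6a6 (taurine) and Slc6a8 (creatine) lay below MEF in every line and were not called, at -0.72 log2 (adjusted p = 0.0882) and -0.57 log2 (adjusted p = 0.0564). Among carriers of transmitters, the monoamine carriers Slc6a2 (noradrenaline), Slc6a3 (dopamine) and Slc6a4 (serotonin) stood at 0.51, 0.16 and -0.32 log2. The GABA and betaine carriers Slc6a11, Slc6a12 and Slc6a13 stood at -0.22, -0.34 and 0.25 log2, and the second glycine transporter, Slc6a5, at -0.22 log2. None of these was called. Neuronal and glial markers gave 1 called gene of 12, Map2, which fell by 2.41 log2, and the median value of that list was -0.01 in MEF, 0.04 in iPS 178B5, 0.01 in iPS 492B4 and -0.03 in ES. The other Slc6 genes (Slc6a7, Slc6a14, Slc6a16, Slc6a18, Slc6a19 and Slc6a21) ranged from -0.31 to 0.14 log2.

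Family Slc1 joins glutamate carriers and neutral amino acid exchangers. Slc1a6 (EAAT4), best known from Purkinje cells, had values of 1.44 in MEF, -0.20 in iPS 178B5, 0.13 in iPS 492B4 and -0.13 in ES. Every line was more than 1 log2 below MEF, and the gene fell by 1.5 log2 (SD 0.18, n = 3; 2.83-fold; adjusted p = 0.0121). Without iPS 178B5 it was not called (-1.44 log2, adjusted p = 0.0582). The other glutamate carriers, Slc1a1 (0.34 log2), Slc1a2 (-0.25 log2), Slc1a3 (0.49 log2) and Slc1a7 (-0.04 log2), were not called.

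The neutral amino acid exchangers of the family stood on opposite sides of MEF. Slc1a5 (ASCT2), a major importer of glutamine, was above MEF in all lines, by 0.56 log2 in iPS 178B5, 1.12 in iPS 492B4 and 1.08 in ES, and was not called (0.92 log2, adjusted p = 0.0831). Slc1a4 (ASCT1), which exchanges alanine, serine and cysteine, had 0.43 in MEF, -0.24 in iPS 178B5, 0.24 in iPS 492B4 and -0.92 in ES. All lines lay below MEF, but they spread over 1.16 log2, and the gene was not called (-0.74 log2, SD 0.58, n = 3; adjusted p = 0.331).

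**Figure D3:**
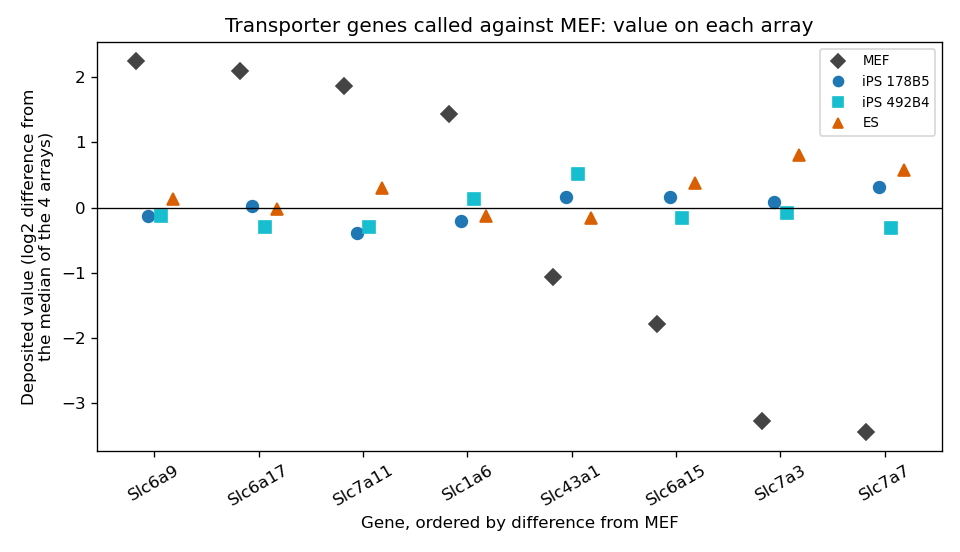
Deposited value (log2 difference from the median of the 4 arrays, vertical axis) on each array for the 8 transporter genes called against MEF, ordered along the horizontal axis by their difference from MEF. The MEF point stands apart from the 3 lines in every gene, above them for Slc6a9, Slc6a17, Slc7a11 and Slc1a6 and below them for Slc43a1, Slc6a15, Slc7a3 and Slc7a7.

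In family Slc38, system A and system N carriers take up glutamine, alanine and other small neutral amino acids with sodium. Slc38a3 (SNAT3, system N) had the largest difference, with values of -1.84 in MEF, 0.39 in iPS 178B5, 1.07 in iPS 492B4 and -0.39 in ES. All lines were above MEF, but they spread over 1.46 log2, and the gene was not called (2.19 ± 0.73 log2, SD, n = 3; adjusted p = 0.0629). Without ES it was (2.57 log2, adjusted p = 0.0102). Slc38a4 (SNAT4) passed the adjusted p but not the fold minimum, at 0.86 ± 0.14 log2 (SD, n = 3; adjusted p = 0.0305). Slc38a1 and Slc38a2 (SNAT1 and SNAT2), the system A carriers of many cultured cells, stood at 0.11 and 0.04 log2, and Slc38a5 (SNAT5) at 0.40 log2.

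Slc38a9, the lysosomal protein that reports arginine to mTORC1, stood at 0.35 log2 and the remaining Slc38 genes ranged from -0.53 (Slc38a8) to -0.17 log2 (Slc38a6), none called. Slc38a1 and Slc38a9 were the members with more than 1 probe set. Those of Slc38a1 disagreed in sign (-0.19 and 0.42 log2), and those of Slc38a9 in size (0.63 and 0.07 log2).

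In family Slc36, Slc36a4 and Slc36a1 lay below MEF in every line and were not called. Slc36a4 (PAT4) had 1.43 in MEF, 0.14 in iPS 178B5, -0.14 in iPS 492B4 and -1.09 in ES, which was the lowest. The mean difference was -1.80 log2 (SD 0.64, n = 3; adjusted p = 0.0754), and it was called without ES (-1.43 log2, adjusted p = 0.00997). Slc36a1 (PAT1), found on lysosomes, stood at -0.93 log2 (adjusted p = 0.068) and was called with reference centring (-1.13 log2, adjusted p = 0.0371). Slc36a2 and Slc36a3, at 0.32 and 0.00 log2, lie next to Slc36a1 in the genome, with no other protein-coding gene between neighbours in the RefSeq table.

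Family Slc43 holds sodium-independent carriers. Slc43a1 (LAT3), a facilitative carrier of leucine and other large neutral amino acids, had -1.06 in MEF, 0.16 in iPS 178B5, 0.51 in iPS 492B4 and -0.16 in ES. All lines were above MEF, ES by the least (0.90 log2). The rise was 1.23 ± 0.33 log2 (SD, n = 3; 2.35-fold; adjusted p = 0.0474). Of the 8 calls this one was lost in the most settings, namely with equal array medians (1.31 log2, adjusted p = 0.0515), with reference centring (1.03 log2, 0.0598), without iPS 178B5 (1.24 log2, 0.136) and without iPS 492B4 (1.06 log2, 0.0568). The direction was the same in each and the difference stayed above 1 log2. Slc43a2 (LAT4) was above MEF in all lines and not called (0.72 ± 0.28 log2, SD, n = 3; adjusted p = 0.121).

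Between the iPS lines and ES, 0 of 60 members were called, and 0% of all genes (limma with 3 groups). At an unadjusted p under 0.05 there were 17 of 60 members and 3079 of 19938 genes, and robust moderation also called 0. With equal array medians or reference centring 44 and 42 genes were called, among them 0 members. In this fit the residual spread came from the iPS pair alone, moderated by that of all genes. The ES line also differed from the iPS lines in strain, and in fibroblast marker values as given above; strain and cell type cannot be told apart here. The part of fibroblast markers in the differences was not tested.

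The largest differences between iPS and ES were in 5 genes that were all lower in ES. Slc43a3, which is related to the LAT carriers and is now known for purine transport, had -0.03 in MEF, 0.03 in iPS 178B5, 0.12 in iPS 492B4 and -1.19 in ES. ES stood alone, and iPS minus ES was 1.26 log2 (SE 0.14; adjusted p = 0.107). The difference was 1.12 log2 for Slc38a3 (adjusted p = 0.273), 1.09 log2 for Slc36a4 (0.163) and 0.92 log2 for Slc1a4 (0.26). Slc6a2, the noradrenaline carrier, had -0.38 in MEF, 0.51 in iPS 178B5, 0.38 in iPS 492B4 and -0.49 in ES, which put MEF and ES together below both iPS lines (0.94 log2, adjusted p = 0.154).

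In the other direction Slc7a3 was 0.81 log2, Slc38a5 0.80 log2, Slc7a2 0.77 log2 and Slc6a14 0.75 log2 higher in ES than the iPS mean. ES was above both iPS lines for 24 members (40.0%) and below both for 20 (33.3%), beside 47.7% and 31% of all genes. All 4 Slc36 and all 3 Slc43 genes were lower in ES than in both iPS lines, but none was called and the sizes varied. In Slc36, iPS minus ES ran from 0.04 log2 (Slc36a3, nearly level) to 1.09 log2, and in Slc43 from 0.49 to 1.26 log2. Of the 4 X-linked members, Slc7a3, Slc38a5 and Slc6a14 were higher in ES than in both iPS lines and Slc6a8 was not; of 659 X-linked genes measured, 43.9% were.

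**Figure D4:**
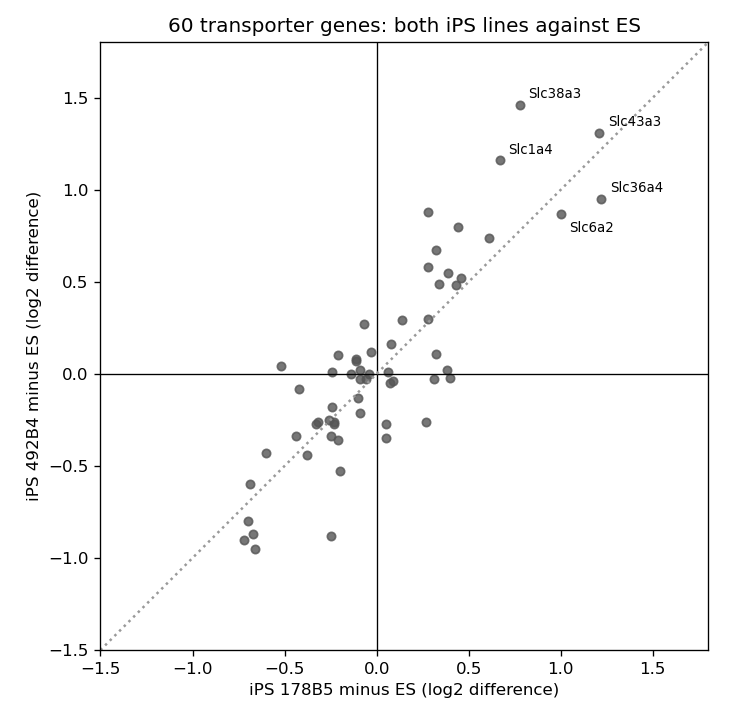
Difference from ES of iPS 178B5 (horizontal axis, log2) and of iPS 492B4 (vertical axis, log2) for the 60 transporter genes, with the 5 largest mean differences named; the dotted line marks equality. Both axes share the ES array; Slc43a3 stands at 1.21 and 1.31 log2 and Slc38a3 at 0.78 and 1.46 log2.

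The iPS lines differed from each other less than either did from ES. Over the members, the root mean square difference of the iPS pair was 0.266 log2, while the distance from ES was 0.44 log2 for 178B5 and 0.531 log2 for 492B4; over all genes the same distances were 0.276, 0.404 and 0.486 log2. From MEF the members stood 1.05 log2 away in 178B5, 1.06 in 492B4 and 1.10 in ES. Over all genes these distances were 1.05, 1.12 and 0.98 log2, so ES was the nearest to MEF there. Over the members the 3 distances were nearly equal, and the largest differences weigh most in them. Slc7a3 was farther from MEF in ES (4.08 log2) than in 178B5 (3.36) and 492B4 (3.18). Slc7a11 was nearer in ES (-1.57 log2) than in 178B5 (-2.27) and 492B4 (-2.17). The order of the member distances was not tested. By value, iPS 492B4 exceeded iPS 178B5 by 0.68 log2 in Slc38a3, 0.61 in Slc1a1, the neuronal glutamate and cysteine carrier, and 0.56 in Slc1a5. The difference had the opposite sign in Slc7a7 (-0.62 log2) and Slc38a1 (-0.53 log2). The 2 probe sets of Slc38a1 shared that sign but not its size, at 0.30 and 0.18 in 178B5 and -0.59 and -0.0 in 492B4. With 1 array a line these differences have no test.

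Genes that act with the carriers were counted from lists. Of 39 measured genes of the amino acid response, the programme that ATF4 drives when amino acids are short, 1 was higher (Got1, 1.46 log2) and 6 were lower: Atf5 (-2.36 log2), Nupr1 (-2.27), Vldlr (-1.59), Jdp2 (-1.55), Cebpb (-1.44) and Chac1 (-1.09). The list's median was 0.09 log2 and 17.9% of it was called, beside 17.6% of all genes. Of 36 genes of mTORC1 amino acid sensing 4 were higher and 1 lower, or 13.9% called beside the same 17.6%, with a median of 0.17 log2. Rragb, a Rag GTPase that recruits mTORC1 to lysosomes, rose by 1.81 log2 and its relative Rragc fell by 1.12 log2, while Depdc5 and Seh1l, of the GATOR complexes, rose by 1.36 and 1.35 log2.

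Of 37 enzymes that make or use amino acids and transmitters, 5 were higher and 4 lower, or 24.3% called beside 17.6% of all genes (7.9% higher and 9.71% lower), with a median of 0.19 log2. Gldc, which cleaves glycine, rose by 5.03 log2, the glutamine synthetase gene Glul by 2.63 log2 and the serine to glycine enzyme gene Shmt1 by 2.60 log2. Gamt, of creatine synthesis, fell by 2.60 log2. A list of 32 further carriers came mostly from other families, but also held Slc6 genes whose symbols end in a letter and so were not members. Of the 32, 2 were higher and 2 lower, or 12.5% called beside 17.6% of all genes, with a median of -0.17 log2. The choline transporter gene Slc5a7 fell by 3.42 log2 and Slc22a4 by 1.16 log2, while Slc17a9, a vesicular nucleotide carrier, rose by 2.36 log2 and Slc25a13, a mitochondrial aspartate and glutamate carrier, by 2.26 log2.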

How the data were processed

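Per the submitters' processing notes, the authors made the deposited log2 values with GCRMA (background correction, normalization and summary of probes); its version and the log base are not given in the sources used here, and base 2 was assumed. In the deposited table the median of every one of the 28853 probe sets over the 4 arrays was 0 within 1e-06. All 4 columns matched a sample.

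Names came from the platform's annotation, and the 21789 probe sets with 1 symbol were averaged to 19938 genes. All 60 member symbols matched the RefSeq gene table of GRCm38.p6, used for names, chromosomes and neighbours. limma 3.58.1 in R 4.3.3 was fitted over all genes with eBayes, and p-values were adjusted by Benjamini and Hochberg's method. The 3 lines against MEF left 2 residual degrees of freedom, and the fit with 3 groups left 1; lone arrays were assumed to vary like the lines that had replicates. The script was tested on simulated data. The number of arrays limits precision.

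The members and lists were chosen with earlier results of these data known. Values on every array were given for called members, heavy chains with their Slc7 partners, the largest difference in each family and the 5 largest differences between iPS and ES; from a list, at most 4 genes were to be named by size, and Got1, Cebpb and Chac1 were added to complete the amino acid response. Slc7a2, Cd68 and the largest differences between the iPS lines were chosen after their values were seen. Alternatives were other centrings, robust moderation, genes with 1 probe set, no fold minimum, and each line left out.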

Additional observations from a re-analysis of the deposited data

Results flagged for a closer look

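Slc43a3 was slightly above MEF in both iPS lines (0.06 and 0.15 log2) and below it in ES (-1.16 log2). The difference from MEF thus had opposite signs in iPS and ES cells, but the iPS lines were nearly level with MEF. The difference itself, iPS minus ES, was 1.26 log2 and did not pass limma's test (adjusted p = 0.107; 0.0805 with equal array medians and 0.0803 with reference centring). It was the only member on opposite sides of MEF with at least 1 log2 between iPS and ES. In all, 11 of 60 members lay on opposite sides, some of them very near MEF, such as Slc1a7 (-0.06, -0.09 and 0.04 log2). The share of all genes that did so is not given here, so the count cannot be judged.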

How the results depend on the processing

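The median difference of the 60 members was 0.030 log2 with equal array medians and -0.245 log2 with reference centring, so its sign rests on the centring; with a line left out it ranged from -0.078 to -0.041 log2. With a line left out, the members called higher numbered 2 to 5 and those called lower 2 to 6, the lowest counts coming without iPS 178B5 and the highest without ES. Over all genes the number called without iPS 178B5 was 613 higher and 744 lower. Equal array medians gave 3 higher and 4 lower, reference centring 3 and 6, no fold minimum 5 and 4, and the other settings 4 and 4. Of the 13 reference genes 2 were themselves called higher and 2 lower (median 0.22 log2). Over all genes reference centring gave 1202 higher and 2555 lower, where the deposited centring gave 1576 and 1936. Slc6a9, Slc6a17, Slc7a3 and Slc7a7 were called in every setting run. Of 23 members followed through the settings, Slc7a6, Slc7a8 and Slc43a3, none of them called, changed sign in at least 1. Leaving out an iPS line left no residual degree of freedom for iPS against ES, so that test was not run.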
